A study of Mus musculus with 120 samples.

Results

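The B6-Chr7MSM strain (Chr7) carries chromosome 7 of MSM in an otherwise B6 mouse, and its liver transcripts were set against those of B6 (C57BL/6J), the control strain and host of the panel. The comparison was chosen by strain label and holds 8 of the 120 arrays of the study, 4 from 2 Chr7 males and 4 from 2 B6 males. All groups described here were 10-week-old males whose livers were taken after 4 h of fasting: B6-Chr7MSM, B6-Chr7CMSM (Chr7C) and B6-Chr7TMSM (Chr7T), which carry parts of chromosome 7, the donor strain MSM, 25 consomic strains without MSM chromosome 7, and B6, with 2 males per strain and 2 arrays per male. The names of the part strains stand for a centromeric and a telomeric part, whose ends the labels do not give.

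A consomic strain is bred by backcrossing until a whole chromosome of the donor has replaced its counterpart in the host. A difference at a gene on the substituted chromosome can lie in that gene's own sequence, while genes on other chromosomes keep the host's alleles. Mouse chromosome 7 holds cytochrome P450 genes of family 2, serum amyloid A, apolipoproteins of the Apoe cluster, hepcidin, imprinted clusters and the hormone gene Fgf21.

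Each value below is the distance of a male, the mean of its 2 arrays, from the mean of the 50 males of the 25 strains. It is given in thousandths of a log2 unit, because the deposited values vary little between arrays: the residual standard deviation had a median of 5.95e-05 log2 units over genes, and from the lowest to the highest decile limit it ran between 1.02e-05 and 0.000806. The deposited values shrink each probe set by a factor of its own, so a distance is no fold change and sizes are not comparable between genes. Where genes are set side by side, a difference is divided by the gene's residual standard deviation (SD). A call below means an adjusted p under 0.05 in limma, fitted with 1 mean per strain to all 60 males.

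The 2 Chr7 males were not alike, and this touches every count that follows. Over the tested genes, each centred on its mean over all arrays and scaled by its standard deviation, the 2 arrays of a Chr7 male correlated at 0.511 and 0.83, while arrays of different Chr7 males correlated between -0.0415 and 0.0651. In B6 the corresponding values were 0.228 and 0.59 within a male and 0.268 to 0.476 between males. Called between the Chr7 males were 282 of 11949 genes (2.36%), against 0 between the B6 males, where 62 genes had an unadjusted p below 0.05 in limma. Counts are therefore given with both Chr7 males and with each alone.

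Against B6, 170 of 11949 genes were called in Chr7 (1.42%), 84 higher (0.703%) and 86 lower (0.72%). Under quantile normalization the split was 257 higher and 32 lower. Chromosome 7 held 81 of the 170, which is 8.64% of its 937 tested genes, 46 higher and 35 lower. The other chromosomes held 87, or 0.793% of their 10968 tested genes, 38 higher and 49 lower. Against the 25 strains, 283 genes were called (2.37%), 138 of them on chromosome 7 (14.7%, 63 higher and 75 lower) and 143 elsewhere (1.3%, 94 higher and 49 lower). Over all genes the higher share was 1.32% and the lower share 1.05%. B6 itself had 0 calls against the 25 strains, with 929 genes at an unadjusted p below 0.05 in limma. Called against both in the same direction were 113 genes (0.946%, with 0.502% higher and 0.444% lower), of which 76 lay on chromosome 7 (42 higher, 34 lower), 36 elsewhere (18 higher, 18 lower) and 1, B830008H07Rik, on no assigned chromosome.

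With male 1 as the only Chr7 animal, 32 chromosome 7 genes and 15 genes elsewhere were called against B6, 47 in all (0.393%). With male 2 alone there were 126 and 671, and 799 in all (6.69%). Against the 25 strains, male 1 gave 59 calls on chromosome 7 and 33 elsewhere (0.77% of all genes), and male 2 gave 149 and 764 (7.66%). Of chromosome 7 genes, 6.3% were called in male 1 and 15.9% in male 2. The other chromosomes ranged up to 0.744% in male 1 and up to 8.93% in male 2. Without B6 male 1 the counts against B6 were 29 on chromosome 7 and 9 elsewhere, and without B6 male 2 they were 39 and 6. Chromosome 7 had the highest share of all chromosomes in each Chr7 male.

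**Figure D1:**
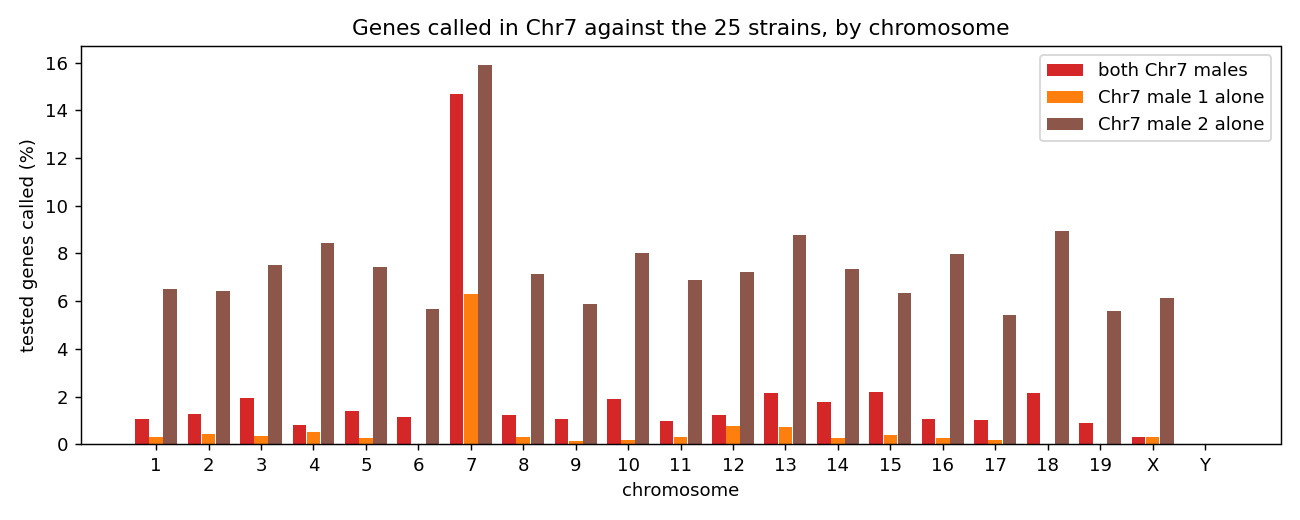
Percent of tested genes called in Chr7 against the 25 strains (vertical axis), for each chromosome (horizontal axis), with both Chr7 males and with male 1 or male 2 alone. Chromosome 7 reaches 14.7% with both males, 6.3% with male 1 and 15.9% with male 2, above every other chromosome in each case.

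Of the 76 chromosome 7 genes called against both, 28 were also called with male 1 alone, 68 with male 2 alone and 24 with each, 12 higher and 12 lower. The 12 higher genes were Abhd2, Bola2, Cln3, Cyp2a12, Eif3f, Hirip3, Hnrnpl, Igsf23, Lin37, Ndufab1, Pepd and Prss53. The 12 lower genes were 1810008I18Rik, Ceacam1, Ctr9, Cttn, Fam168a, Nap1l4, Nlrp12, Nlrp6, Nudt19, Pik3c2a, Ttc23 and Zfp507. Of the 36 genes elsewhere, 3 were also called with male 1 alone, 26 with male 2 alone and 1, Pmm1 on chromosome 15, with each.

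Sensors and receptors of immunity and cell adhesion stood on both sides. Nlrp12, a cytosolic NLR protein that restrains inflammatory signalling, lay at -415 and -527 thousandths in the Chr7 males, against -175 to 124 in the 50 males of the 25 strains and 24.4 and 24.2 in the B6 males. Both Chr7 males fell below all of those males. The difference from B6 was -495 ± 61.3 thousandths (SE from the spread pooled over 30 strains, n = 2 males each, limma adjusted p = 5.89e-06). Nlrp6, an NLR protein known from the intestinal epithelium, lay at -22.5 and -33.6 in Chr7, against -5.29 to 5.85 in the 25 strains and 2.31 and 1.2 in B6. The difference of Nlrp6 from B6 was -29.8 ± 2.52 (adjusted p = 1.49e-09). Nlrp12 was the second and Nlrp6 the 864th of the 937 tested genes in chromosome order, so the pair stands near opposite ends.

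Ceacam1, an adhesion receptor that promotes insulin clearance by the hepatocyte, lay at -12.7 and -17.9 in Chr7, against 2.31 and 1.13 in B6. The difference was -17 ± 1.92 (adjusted p = 9.85e-07), and the Chr7 males were below all 50 males of the 25 strains, the lowest of which was at -5.58. Its neighbour Ceacam2 went the other way, with 0.496 and 0.169 in Chr7 and -0.0711 and 0.0174 in B6 (adjusted p = 0.0386), a call lost under quantile normalization (adjusted p = 0.412). Of the 13 tested immune receptor and leukocyte genes of the chromosome, 1 was higher and 3 were lower against B6, with a median difference of -0.828 SD. Called in either direction were 8.64% of the chromosome's genes and 1.42% of all genes, and the median over all tested genes was 0.152 SD.

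Igsf23, which encodes a protein with an immunoglobulin domain, was higher. It lay at 5.7 and 6.98 in Chr7, against -1.17 to 0.706 in the 25 strains and -0.465 and 0.415 in B6, a difference from B6 of 6.36 ± 0.421 (adjusted p = 3.88e-12). The interferon-related genes of the chromosome held 11 tested members, of which 0 were higher and 2 lower against B6, with a median of -0.999 SD, beside 8.64% of the chromosome's genes called and 0.72% of all genes lower. The lower members were Trim30a, a negative regulator of NF-kappa-B signalling in mouse, at -4.62 and -5.42 in Chr7 against -0.106 and 0.165 in B6, and Trim21, an antibody receptor of the cytosol, at -0.124 and -0.392 against -0.00926 and -0.0295. The Trim21 call was lost under quantile normalization (adjusted p = 0.663). Trim21 and Trim30a are close neighbours, the 613th and 619th of the tested genes.

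Of 9 tested P450 genes of family 2 on the chromosome, 1 was higher and 1 lower against B6, with a median of -0.116 SD, where 8.64% of the chromosome's genes were called. Cyp2a12, a liver P450 that hydroxylates steroids and bile acids in mouse, lay at 1.53 and 1.52 in Chr7, against -0.664 to 0.6 in the 25 strains and -0.139 and 0.113 in B6. The difference was 1.54 ± 0.243 (adjusted p = 0.00037), but under quantile normalization the gene was no longer called (adjusted p = 0.604). Cyp2r1, a vitamin D 25-hydroxylase, lay at -2.31 and -4.67 in Chr7 and at 0.753 and 0.346 in B6, a difference of -4.04 ± 0.695 (adjusted p = 0.000944). Cyp2b10, the classical target of the receptor CAR, was not called: it lay at -29.1 and -26.9 in Chr7 and at -10.2 and -7.05 in B6 (adjusted p = 0.545).

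Slco2b1, an organic anion transporter, lay at -11.1 and -28.5 in Chr7, against -6.17 to 4.78 in the 25 strains and 1.49 and 2.78 in B6. The difference was -21.9 ± 3.42 (adjusted p = 0.000323), and with male 1 alone it was -13.3 (adjusted p = 0.0624). Nudt19, a peroxisomal coenzyme A diphosphatase, lay at -9.47 and -6.99 in Chr7 and at 0.115 and -1.17 in B6, a difference of -7.7 ± 1.53 (adjusted p = 0.00635). Folr2, a folate receptor found on liver macrophages, lay at -6.31 and -7.02 in Chr7 and at -1.34 and -1.41 in B6 (adjusted p = 0.0213). All 14 tested Kupffer cell and macrophage markers were without a call. Stard5, a lipid-binding protein, lay at -1.34 and -1.88 in Chr7 and at -0.0551 and 0.109 in B6 (adjusted p = 0.0315).

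Among 29 tested genes of intermediary metabolism on the chromosome, 2 were higher and 2 lower against B6, with a median of -0.312 SD. Called in either direction were 8.64% of the chromosome's genes and 1.42% of all genes. Idh2, the mitochondrial isocitrate dehydrogenase that makes NADPH, lay at 2.69 and 2.2 in Chr7 and at -0.389 and -0.476 in B6 (difference 2.87 ± 0.616, adjusted p = 0.0114). Pepd, which splits dipeptides ending in proline, lay at 1.21 and 1.22 in Chr7 and at 0.0882 and 0.0111 in B6 (adjusted p = 0.000413, and 0.0681 under quantile normalization). Fah, the last enzyme of tyrosine breakdown, was lower, with -0.125 and -0.194 in Chr7 and -0.0207 and -0.0295 in B6 (adjusted p = 0.0114), a direction that turned and a call that was lost under quantile normalization (adjusted p = 0.593). Slc27a5, which activates bile acids before conjugation, was also lower, but the 2 males disagreed, as described below. Ndufab1, the mitochondrial acyl carrier protein, was the called member of 6 respiratory chain genes on the chromosome, at 1.63 and 0.996 in Chr7 and -0.21 and 0.0288 in B6 (adjusted p = 1.54e-05, and 0.0831 under quantile normalization).

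Hirip3, a histone-binding protein, lay at 5 and 4.71 in Chr7, against -0.692 to 1.03 in the 25 strains and 0.15 and -0.13 in B6, with a difference of 4.84 ± 0.289 (adjusted p = 7.01e-13). Hnrnpl, a regulator of splicing, lay at 6.6 and 5.93 in Chr7 and at -1.88 and -2.35 in B6 (8.38 ± 0.64, adjusted p = 1.34e-10). Ctr9, a subunit of the PAF1 complex that travels with RNA polymerase II, fell in both males alike, at -1.46 and -1.46 in Chr7 and 0.0869 and 0.117 in B6 (adjusted p = 0.00021). The translation factor gene Eif3f was higher, at 0.673 and 0.536 in Chr7 and -0.0872 and -0.0557 in B6 (adjusted p = 0.000383).

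Among other called genes, Abhd2, a serine hydrolase that cleaves monoacylglycerol, lay at 77.1 and 91.7 in Chr7, against -19.1 to 31.8 in the 25 strains and -16.5 and -25.2 in B6 (105 ± 12.7, adjusted p = 3.82e-06). Fam168a lay at -5.65 and -5.95 in Chr7 and at -0.285 and -0.461 in B6, a difference of -5.42 ± 0.347 (adjusted p = 2.29e-12). Cln3, a lysosomal membrane protein, was the called member of 6 lysosomal genes, at 0.372 and 0.594 in Chr7 and -0.0995 and -0.155 in B6 (adjusted p = 8.18e-06). Beside this count, 8.64% of the chromosome's genes and 1.42% of all genes were called.

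**Figure D2:**
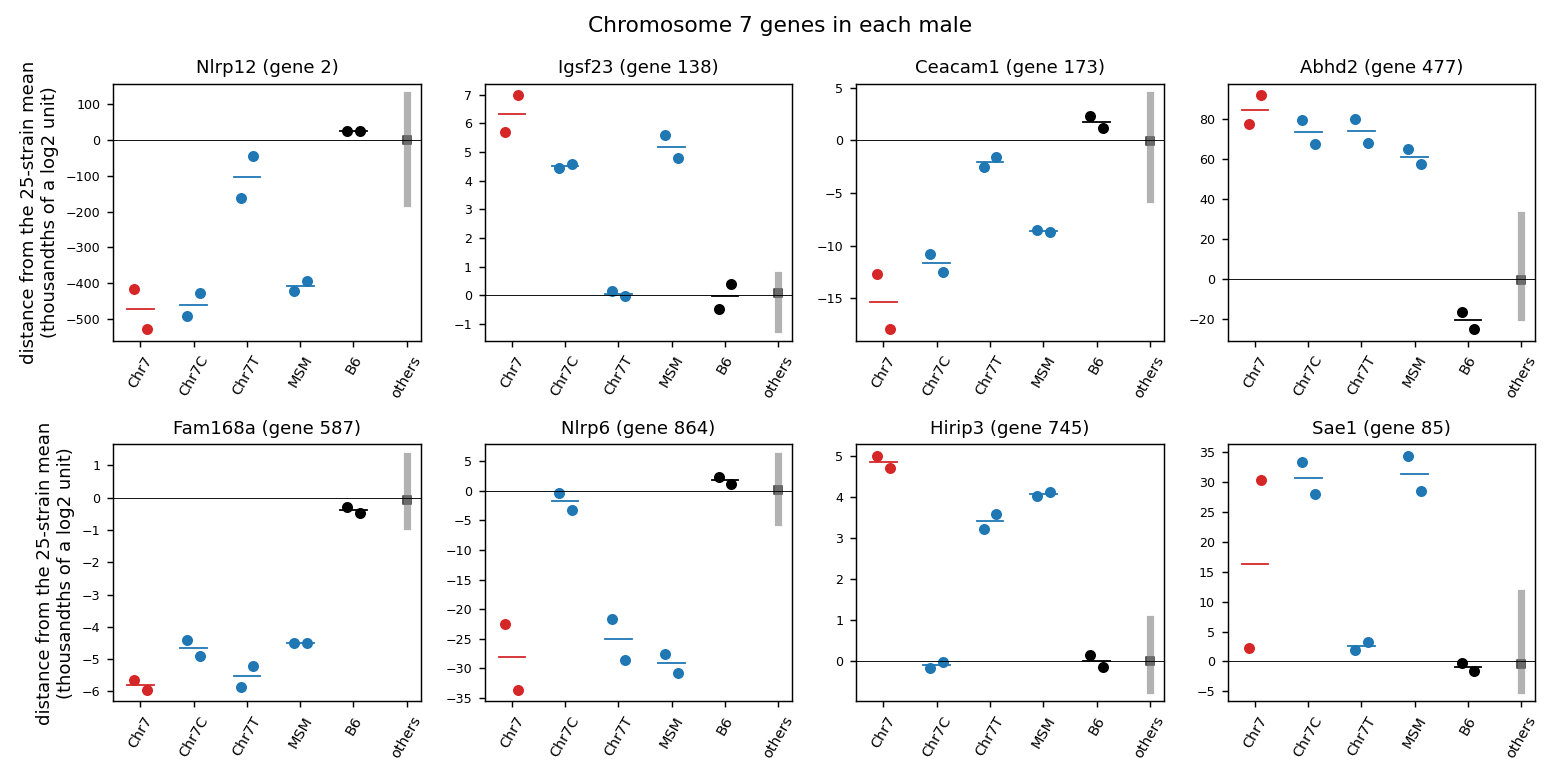
Distance of each male from the mean of the 25 strains, in thousandths of a log2 unit (vertical axis, scale set per gene), for Nlrp12, Igsf23, Ceacam1, Abhd2, Fam168a, Nlrp6, Hirip3 and Sae1, by strain; dots are males, short lines their means, and the bar gives the range and median of the 50 males of the 25 strains. Both Chr7 males stand outside that range for every gene shown except Sae1, where male 1 lies at 2.23 and male 2 at 30.4.

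Several well-known liver genes of the chromosome were not called against B6. None of the 4 apolipoprotein genes (Apoe, Apoc1, Apoc2, Apoc4) and none of the 4 listed iron and heme genes was called in either direction. Uros, a heme synthesis gene of the chromosome that is not on that list, was called lower and is described at the end. Hamp, which encodes hepcidin, lay at -77.4 and -31 in Chr7 and at -45.2 and -22.2 in B6 (adjusted p = 0.926). The 4 serum amyloid A genes were without a call against B6. Saa1 lay at 2.8 and -14.1 in Chr7 and at -56.2 and -63.5 in B6 (adjusted p = 0.609), inside the range of the 25 strains, -96.7 to 115. Of 16 tested genes in imprinted clusters and their neighbours, 1 was higher and 2 lower against B6: Phlda2 at 0.26 and 0.15 in Chr7 against -0.108 and -0.0495 in B6, Cd81 at -0.415 and -1.02 against 0.154 and 0.0728, and Nap1l4 at -0.314 and -0.332 against 0.073 and -0.0279. Called in either direction were 8.64% of the chromosome's genes and 1.42% of all genes, and the list's median was 0.135 SD. Under quantile normalization the Cd81 difference was 0 (adjusted p = 1). Phlda2 and Nap1l4 are adjacent among the tested genes, the 922nd and 923rd tested genes, and went in opposite directions; Nap1l4 turned to higher under quantile normalization.

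The part strains show where along the chromosome many of the differences lie. Against the 25 strains, Chr7C had 82 calls on chromosome 7 and 8 elsewhere (0.77% of all genes), and Chr7T had 63 and 40 (0.862%). Chr7C calls ran from Nlrp12, the second tested gene, to Ndufab1, the 707th, and Chr7T calls from Abhd2, the 477th, to Ccnd1, the 937th. Within the stretch shared by these limits, genes 477 to 707, both part strains had calls, 38 in Chr7C and 35 in Chr7T. The labels give no ends for the parts, and these limits are those of the calls.

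Before gene 477, 62 of 476 genes were called in Chr7 and 44 in Chr7C. In the shared stretch, 40 of 231 were called in Chr7, and after gene 707, 36 of 230 in Chr7 and 28 in Chr7T. The median size of the distance from the 25 strains over these 3 stretches was 0.86, 0.966 and 0.872 SD in Chr7, 0.75, 0.778 and 0.453 SD in Chr7C, and 0.442, 0.836 and 0.843 SD in Chr7T. In B6 it was 0.579, 0.514 and 0.601 SD. For genes on other chromosomes it was 0.653 SD in Chr7, 0.463 in Chr7C, 0.497 in Chr7T and 0.557 in B6. Outside the reach of its calls each part strain was near the level of its other chromosomes, whereas Chr7 was above that level in all 3 stretches. The limits were set by the calls, so by construction a part strain has no call beyond its own limit. These medians therefore cannot show where the parts end. Chr7, Chr7C, Chr7T and MSM are all measured from the same 25 strains.

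**Figure D3:**
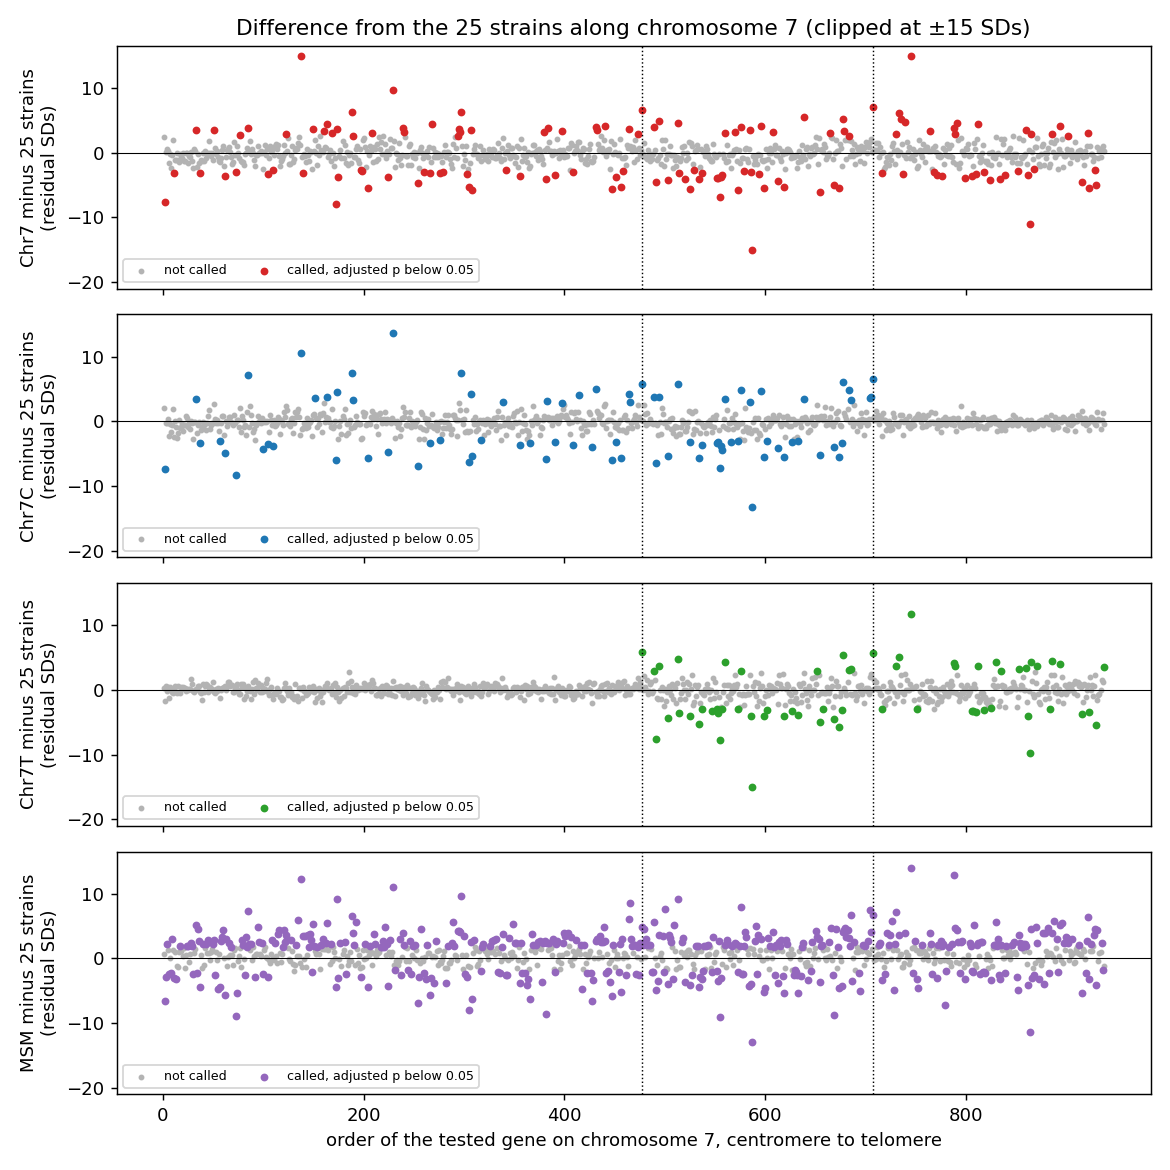
Difference from the 25 strains divided by the residual SD (vertical axis, clipped at ±15) for the 937 tested genes in chromosome order (horizontal axis, gene number) in Chr7, Chr7C, Chr7T and MSM, from top to bottom; called genes are coloured. The dotted lines at gene 477 and gene 707 mark the first Chr7T call and the last Chr7C call.

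Of the 76 chromosome 7 genes called against both references, 22 were also called in Chr7C alone, 13 in Chr7T alone and 18 in both. The remaining 23 (17 higher, 6 lower) were called in neither part strain, among them Fgf21 and Nupr1. The genes given next are examples that follow the limits. For Nlrp12 the Chr7C males were at -490 and -428, against -161 and -45.8 in Chr7T. For Igsf23 they were at 4.44 and 4.59, against 0.139 and -0.0179 in Chr7T. At the other end, Nlrp6 lay at -0.404 and -3.21 in Chr7C and at -21.7 and -28.5 in Chr7T, and Hirip3 at -0.154 and -0.0114 in Chr7C and at 3.23 and 3.6 in Chr7T. In the shared stretch, Fam168a lay at -4.41 and -4.89 in Chr7C and at -5.87 and -5.2 in Chr7T, and Abhd2 at 79.3 and 67.5 in Chr7C and at 79.8 and 67.8 in Chr7T.

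Tested directly, Chr7 and Chr7C differed in 8 of 11949 genes (0.067%): Selenow before gene 477, Cln3, Nupr1, Hirip3, Htra1, Nlrp6 and Cd81 after gene 707, and Pmm1 on chromosome 15. Apart from Selenow and Pmm1 these lie beyond the last Chr7C call. Chr7 and Chr7T differed in 42 genes (0.351%), 20 of them on chromosome 7. Of these 20, 18 lay before gene 477 and the other two were Hirip3 and Dhcr7.

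Of the 21 genes that differed between Chr7 and Chr7T on other chromosomes, 10 belong to the list of cholesterol synthesis, the pathway that builds sterol from acetyl units in the hepatocyte. That list had 18 tested genes, of which 11 were lower in Chr7 than in Chr7T and 0 higher, with a median of -4.33 SD. Over all genes 0.209% were lower, and the median was 0.00348 SD. Idi1, which isomerises isopentenyl pyrophosphate, lay at -20.8 and -4.66 in Chr7, 95.2 and 48.6 in Chr7T, 75 and 79.6 in MSM and 14.3 and 8.72 in B6 (adjusted p = 0.00193 between Chr7 and Chr7T). Sqle, squalene epoxidase, lay at -5.45 and -4.55 in Chr7, 43.9 and 16.3 in Chr7T and 5.38 and 4.2 in B6 (adjusted p = 0.00553). Dhcr7, the last enzyme of the pathway and itself on chromosome 7, lay at -4.22 and -11.7 in Chr7 and at 12.1 and 1.62 in Chr7T (adjusted p = 0.0151).

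Against B6, by contrast, 0 of the 18 genes were called in Chr7, with a median of -1.6 SD, and against the 25 strains 1 was lower, with a median of -0.621 SD. Chr7T itself had 14 of 18 higher than the 25 strains, where 0.469% of all genes were higher. The count between Chr7 and Chr7T rests on Chr7T male 1: without it 0 of 18 were called, with a median of -3.29 SD, and without Chr7T male 2 there were 16, with a median of -6.21 SD. Without Chr7 male 1 there were 13 and without Chr7 male 2 there were 2.

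Near the centromere the Chr7 males parted at neighbouring genes. Selenow, a small selenoprotein, lay at 7.76 in Chr7 male 1 and -124 in Chr7 male 2, while Chr7C had -164 and -161, Chr7T 19.1 and -4.12, MSM -168 and -182 and B6 -23 and -13.9. Male 1 stood within the range of the 25 strains, -18 to 20.7, and male 2 near Chr7C and MSM (adjusted p = 8.05e-07 between the males). Sae1, a subunit of the SUMO-activating enzyme, lay at 2.23 in male 1 and 30.4 in male 2, while Chr7C had 33.4 and 28.1, Chr7T 1.9 and 3.26, MSM 34.4 and 28.5 and B6 -0.321 and -1.57 (adjusted p = 5.39e-06 between the males). Slc27a5 lay at -0.39 in male 1 and -2.13 in male 2, while Chr7C had -1.94 and -1.56, MSM -2.23 and -1.88 and B6 0.283 and 0.0832 (adjusted p = 0.0192 between the males).

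Those 3 genes belong to 7 that were called in Chr7C between Zfp579 and Igsf23, the 37th and 138th tested genes; the others were Zfp110, Ccdc61, Sympk and Qpctl. Expressed as a share of the Chr7C distance, Chr7 male 1 had -0.0479 to 0.53 (median 0.248) over the 7 genes and male 2 had 0.63 to 1.39 (median 0.99). Male 1 was below male 2 at all 7. Over the other 75 Chr7C calls of the chromosome the medians were 0.838 in male 1 and 0.892 in male 2. The males also differed at 7 of these 75, so the split was not confined to this stretch. Male 1 had the smaller share at Tmem147, 0610005C13Rik (0.281, against 1.11 in male 2), Saa4, Slco2b1 and Trim21. It had the larger share at Isoc2b and 3110040N11Rik. Just before the stretch, at Isoc2b, the 33rd gene, the order of the males was reversed. There male 1 lay at 6.09, beyond Chr7C at 3.93 and 3.34, and male 2 at 1.39. At Igsf23, the end of the stretch, male 1 lay at 5.7, a share of 1.26, and male 2 had a share of 1.55. This stretch was picked after its values were seen, so its shares are a description without a test, and the genotype of the 2 males over it is not among the data used here.

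**Figure D4:**
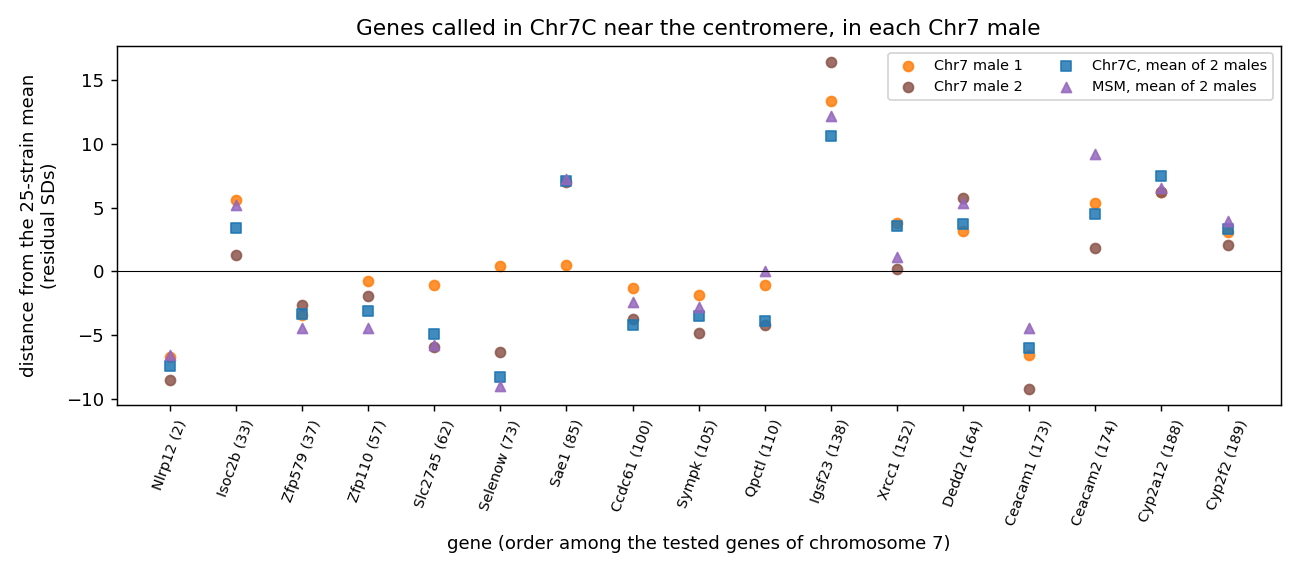
Distance from the mean of the 25 strains divided by the residual SD (vertical axis) for the genes called in Chr7C among the first 200 tested genes of chromosome 7 (horizontal axis, in chromosome order), for Chr7 male 1, Chr7 male 2, and the means of the 2 Chr7C and the 2 MSM males. At Selenow and Sae1 male 1 lies near 0 while male 2 lies beside Chr7C and MSM.

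MSM, the donor, had 455 of 937 chromosome 7 genes called against the 25 strains (48.6%), against 4586 of 10968 elsewhere (41.8%), 42.3% of all genes. Chr7 and MSM differed in 3319 genes (27.8%): 204 on chromosome 7, 55 higher and 149 lower in Chr7, and 3109 elsewhere, with 12.5% of all genes higher and 15.3% lower. For Nlrp12, which lay at -422 and -393 in MSM, the difference between Chr7 and MSM was not called (adjusted p = 0.452), nor was that for Nlrp6 (-27.5 and -30.7 in MSM, adjusted p = 0.784) or Abhd2 (64.9 and 57.2 in MSM, adjusted p = 0.167). Ceacam1 was further from the 25 strains in Chr7 than in MSM, where it lay at -8.52 and -8.68 (adjusted p = 0.00983). Fam168a, at -4.5 and -4.51 in MSM, was lower in Chr7 (adjusted p = 0.00607). Prss53, a serine protease gene, was at 1.32 and 1.03 in Chr7 and at 4.34 and 3.59 in MSM.

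Outside chromosome 7 the genes called against both were spread over the genome. Pmm1, a phosphomannomutase of glycan synthesis on chromosome 15, lay at 3.4 and 4.24 in Chr7, 0.413 and 0.0763 in Chr7C, 0.186 and 2.1 in Chr7T, -0.546 and -0.504 in MSM and 0.172 and -0.456 in B6. Its difference from B6 was 3.96 ± 0.385 (adjusted p = 3.68e-08), and that from MSM was also called (adjusted p = 4.63e-10), so the Chr7 level was reached in neither B6 nor the donor. Pmm1 was also called higher in Chr7T against the 25 strains, by a smaller distance (limma adjusted p = 0.0348). Rpp40, a subunit of ribonuclease P, lay at 9.47 and 9.43 in Chr7, -3.84 and -3.12 in MSM and 2.23 and -0.691 in B6 (8.68 ± 1.85 from B6, adjusted p = 0.0114). Hacd1, which acts in the elongation of long fatty acids, lay at 2.8 and 2.71 in Chr7 and at -0.422 and -0.375 in B6 (adjusted p = 0.00635, and 0.136 under quantile normalization).

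Lower genes elsewhere included Slc29a1, a nucleoside transporter, at -7.48 and -6.21 in Chr7 and 1.51 and 3.85 in B6 (-9.53 ± 2.41, adjusted p = 0.0386, and 0.088 under quantile normalization). Male 1 and male 2 were both within the range of the 25 strains, whose lowest male was at -10.5. Baat, which conjugates bile acids with taurine or glycine, lay at -0.537 and -1.68 in Chr7 and at 0.392 and 0.796 in B6 (-1.7 ± 0.354, adjusted p = 0.00961). With Slc27a5, which acts just before it, Baat made up the 2 lower members among 19 tested bile acid genes, none of which was higher, and the list's median was -1.62 SD. Over all genes 0.72% were lower and the median was 0.152 SD. The Slc27a5 call was lost with Chr7 male 1 alone (adjusted p = 0.543) and under quantile normalization, where its difference was 0 (adjusted p = 1). Acox2, a peroxisomal oxidase that shortens bile acid precursors, lay at -0.368 and -1.19 in Chr7 and at 0.217 and 0.728 in B6 (adjusted p = 0.0227, and 0.11 under quantile normalization). F9, coagulation factor IX, was at -0.213 and -0.304 in Chr7 and at 0.0855 and 0.0778 in B6 (adjusted p = 0.0343), and Pygl, liver glycogen phosphorylase, at -0.151 and -0.286 against 0.115 and 0.0866 (adjusted p = 0.0389). For F9 and Pygl the difference was 0 under quantile normalization (adjusted p = 1 each). Baat, Acox2, F9 and Pygl were each further from B6 in male 2, and each lost its call with male 1 alone.

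Fgf21, Nupr1 and Pdk4 were called against B6 with both Chr7 males but not with male 1 alone. The same loss was seen for many other genes named here, among them Cyp2r1, Folr2, Trim30a and Idh2. Fgf21, a hormone released by the fasting or stressed liver and the 384th gene of chromosome 7, lay at 13.8 in Chr7 male 1 and 193 in Chr7 male 2, against -12 to 78.5 in the 25 strains and 2.39 and -4.12 in B6. It was called with both males (104 ± 26.2 from B6, adjusted p = 0.038) but not with male 1 alone (adjusted p = 0.767). Nupr1, a stress-induced chromatin protein and the 735th gene, lay at 72.8 and 192 in Chr7, -1.87 and 1.01 in Chr7C, 59.8 and 53.8 in Chr7T, 17.9 and 18.5 in MSM and -2.85 and -2.49 in B6 (135 ± 24.9 from B6, adjusted p = 0.0023). Both Chr7 males and both Chr7T males were above the B6 and Chr7C males. The 25 strains ran from -8.56 to 149, so that Chr7 male 1 and both Chr7T males lay inside their range. With Chr7 male 1 alone the difference from B6 was not called (adjusted p = 0.207). Pdk4, which blocks pyruvate oxidation in fasting, lay at 44 and 160 in Chr7 and at 8.44 and -1.57 in B6 (adjusted p = 0.0379). It was not called with male 1 alone. The mean log2 values of Nupr1 and Pdk4 in the 25 strains, 7.34 and 7.32, lay below 7.41663, the median of all values used as filter. Pdk4 passed that filter only through Chr7 male 2 and MSM male 2, so its call is a description of male 2 and no support.

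Of 21 tested genes of the ATF4 and amino acid response, 2 were higher and 0 lower in Chr7 against B6, Fgf21 and Nupr1, with a median of 1.83 SD. Over all genes 0.703% were higher, and the median was 0.152 SD. Neither Fgf21 nor Nupr1 was called with male 1 alone, and the mean level of Nupr1 in the 25 strains lay below the filter. Between the males, 8 were higher in male 2 (1.11% of all genes were, and 1.25% were lower): Atf3, Atf4, Cebpb, Ddit3, Fgf21, Nupr1, Ppp1r15a and Trib3. The list's median for male 2 minus male 1 was 2.47 SD, against -0.0851 SD over all genes. Atf3, a stress-induced transcription factor, lay at -9.16 in male 1 and 268 in male 2, against -12.2 to 216 in the 25 strains (adjusted p = 0.000255 between the males). Ddit3, which encodes CHOP, lay at 1.18 and 114, against -8.5 to 91.9 (adjusted p = 0.000846). Ppp1r15a, the phosphatase subunit that reverses the stress block of translation, lay at 0.887 and 16, against -2.33 to 9.53 (adjusted p = 0.00143). Male 2 was above all 50 males of the 25 strains for these 3 genes, and male 1 was inside their range.

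Other members of the list did not differ at the threshold between the males: Asns, asparagine synthetase, lay at 9.9 in male 1 and 18.3 in male 2 (adjusted p = 0.776), and Chac1, a glutathione-degrading enzyme, at -2.14 and -0.558 (adjusted p = 0.647). Hmox1, the heme oxygenase of the NRF2 response, was higher in male 2, at -3.6 in male 1 and 102 in male 2 (adjusted p = 0.00246). The endoplasmic reticulum stress list, 21 tested genes, held 0 calls in Chr7 against B6, with a median of 0.277 SD, and 0 between the males, with a median of 0.0304 SD. Of 20 tested glucocorticoid and fasting genes, 1, Pdk4, was higher in male 2 and 0 lower, with a median of 2.65 SD. Pdk4 passed the filter only through Chr7 male 2 and MSM male 2, so this count is no support. Among all tested genes, 1.11% were higher in male 2 and 1.25% lower, with a median of -0.0851 SD. Over all genes, in 225 of the 282 that differed between the males, male 1 was the nearer to the mean of the 25 strains. With 2 males, a difference of 1 animal and a difference of the strain cannot be told apart for these genes.

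**Figure D5:**
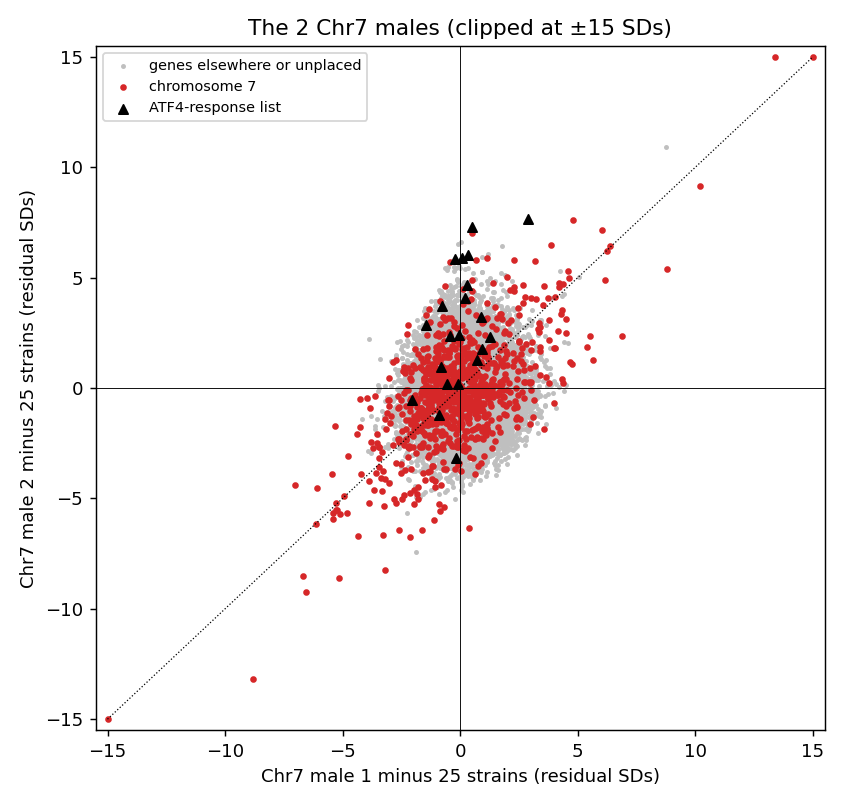
Distance of Chr7 male 1 (horizontal axis) and Chr7 male 2 (vertical axis) from the mean of the 25 strains, each divided by the residual SD and clipped at ±15, for all tested genes, with the ATF4 list as triangles. The 8 list members that differ between the males lie higher in male 2 than in male 1.

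Of these 8 genes, 3 have a match to the letters TGATGNAA, the C/EBP-ATF response element, in the 250 bases before their start (either strand, where TTNCATCA is its reverse). The promoters are shown because these genes moved together in male 2; the motif was chosen after the values were seen. The sequences are from RefSeq, build GRCm38.p6, on the gene's strand (minus for all), with the match in capitals: Atf3 at chr1:191183334-191183583, Fgf21 at chr7:45615491-45615740 and Nupr1 at chr7:126625471-126625720.
Atf3: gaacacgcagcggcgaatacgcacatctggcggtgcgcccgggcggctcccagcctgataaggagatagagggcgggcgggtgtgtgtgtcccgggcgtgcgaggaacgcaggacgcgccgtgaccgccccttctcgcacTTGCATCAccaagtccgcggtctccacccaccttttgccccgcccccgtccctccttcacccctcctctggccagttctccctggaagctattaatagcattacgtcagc
Fgf21: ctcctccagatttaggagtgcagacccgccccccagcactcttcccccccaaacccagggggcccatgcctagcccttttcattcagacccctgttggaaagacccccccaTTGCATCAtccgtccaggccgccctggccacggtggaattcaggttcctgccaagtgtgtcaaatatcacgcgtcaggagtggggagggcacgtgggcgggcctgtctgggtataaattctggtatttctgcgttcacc
Nupr1: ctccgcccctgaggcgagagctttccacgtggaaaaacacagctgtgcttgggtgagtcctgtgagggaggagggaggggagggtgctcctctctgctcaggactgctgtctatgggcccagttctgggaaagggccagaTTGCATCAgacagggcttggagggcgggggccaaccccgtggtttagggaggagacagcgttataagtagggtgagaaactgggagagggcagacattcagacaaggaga
All 3 matches read TTGCATCA, with the first base 110, 139 and 110 bases before the start. Atf4, Cebpb, Ddit3, Ppp1r15a and Trib3 had no match in this window. A match was found in 3.53% of 27025 promoters of the table, in 2.13% of 9661 promoters of tested genes and in 2 of 12 promoters of the other list members. The match is a description of the letters, and the sequence is that of the reference genome, not of MSM.

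Lists of other liver programmes held few calls against B6. None was called among 19 lipogenic genes, 15 male-biased, 9 female-biased, 26 acute phase, 20 circadian, 11 heat shock, 18 NRF2 target or 12 cell cycle genes. Of 26 PPARA targets 2 were higher, Fgf21 and Pdk4, with a list median of 0.291 SD. Pdk4 passed the filter only through Chr7 male 2 and MSM male 2. Of 44 genes of xenobiotic metabolism 1 was higher, Cyp2a12. Of the nuclear respiratory chain genes, 1 of 44 was higher, Ndufab1. Over all genes the share called was 1.42%.

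The hepatocyte markers Apoa1 and Ttr had mean deposited log2 values of 14.7 and 14.5 in the 25 strains, where the median of the table was 7.41663, and 0 of the tested markers of 11 cell types was called against B6. Averaged over 10 tested hepatocyte markers, the Chr7 males were at -1.34 and 0.625 SD, against -1.03 to 1.12 in the 25 strains and -0.0851 and 0.216 in B6. The 12 stellate cell and fibroblast markers were at 0.2 and 1.61 in Chr7 and -0.121 and -0.412 in B6, and the 14 macrophage markers at 0.156 and 0.766 in Chr7 and -0.589 and -0.607 in B6. The part of these in the results was not tested, and a change in cell numbers cannot be told apart from one in RNA per cell. Array signals also depend on how well probes pair with the MSM sequence: of the 47 called genes with at least 2 tested probe sets, 15 had another set called in the same direction, 32 had none, and 0 had sets called in opposite directions. The part of probe sequence in the results was not tested.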

How the data were processed

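Livers of 60 males of 30 strains were measured on 120 arrays (Affymetrix Mouse Genome 430_2, per the labels). The authors deposited log2 values, already normalized between arrays (medians 7.41583 to 7.4168); the sources used here give neither method nor base, and log2 was read from their range. In them a probe set's deviations are shrunk by a factor of its own. Males were taken from the animal number in the titles. Of 45037 probe sets, 34945 had a single symbol in the platform annotation (34741 matched RefSeq). Each of 18193 genes was represented by its probe set of highest mean, and 11949 genes above the median of all values in at least 2 males were tested with limma 3.58.1 (R 4.3.3) on male means, 1 mean per strain, 30 residual degrees of freedom, Benjamini-Hochberg over all genes. Contrasts were Chr7 minus B6, minus the 25 strains, Chr7C, Chr7T and MSM. For single males, each Chr7 male had its own mean. The p-values and standard errors rest on the spread between males of the same strain, pooled over all 30 strains. They do not measure the spread of the Chr7 or the B6 males themselves. Between the Chr7 males 282 genes were called by limma, whereas 20 of the 30 strains had none. Genes named were the 12 largest differences per direction on chromosome 7 and 6 elsewhere with both Chr7 males beyond both B6 males, and up to 4 called members per list, where largest is by the raw difference, a rule for naming and no order of effect, since the shrinkage differs between probe sets; genes that differ between the Chr7 males or part strains, and those called in each male, were chosen after their values were seen. Not every gene that met the naming rule is described above: Kctd15, Lonrf1, Fhit, Gpld1, Rbl2 and Entpd8 are among those left out. For 1810008I18Rik no values are given. Members and lists were chosen with earlier results of these data known. The fit was tested on simulated data.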

Additional observations from a re-analysis of the deposited data

Results flagged for a closer look

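The Chr7 difference from the 25 strains was set against the sum of the Chr7C and Chr7T differences, and 8 of 11949 genes departed from that sum by limma (0.067%). In thousandths of a log2 unit, Chr7 minus the sum was 0.604 for 2310010J17Rik, -2.53 for 3110040N11Rik, 2.57 for Cib1, 4.13 for Clns1a, 4.39 for Fam168a, 0.451 for Timm10b and -0.208 for Tmc5. These 7 genes lie in the stretch of chromosome 7 where both part strains had calls. There the sum counts a difference found in both part strains 2 times. A departure of Chr7 from the sum is thus built into the overlap and says nothing about whether the parts add up. At Fam168a, for example, Chr7 lay at -5.65 and -5.95, Chr7C at -4.41 and -4.89 and Chr7T at -5.87 and -5.2. At Timm10b the distance from the 25 strains was -0.0301 in Chr7, which was not called (adjusted p = 0.848), -0.235 in Chr7C and -0.247 in Chr7T. Pmm1 on chromosome 15 was the remaining gene, at 2.43 above the sum, with Chr7 at 3.4 and 4.24, Chr7C at 0.413 and 0.0763 and Chr7T at 0.186 and 2.1.

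Probe sets without a single gene symbol, those with none or several in the annotation, enter no comparison above, and 3122 of them were tested. Of the 11949 genes, 0.946% were called in Chr7 against both B6 and the 25 strains in the same direction. Of the 3122 probe sets, 26 were so called, a like share, 15 higher and 11 lower. Their differences from B6 ranged from -32 to 32.4 thousandths of a log2 unit. Of the 26, 16 had no symbol and 10 had several.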

How the results depend on the processing

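Counts of calls moved with the males, arrays and normalization used. Leaving out 1 Chr7 or B6 male at a time gave 29 to 126 chromosome 7 calls and 6 to 671 calls elsewhere against B6, and 59 to 149 and 33 to 764 against the 25 strains. For calls against both, it gave 16 to 58 higher and 12 to 53 lower on chromosome 7, and 1 to 255 higher and 2 to 224 lower elsewhere. The highest count was without Chr7 male 1 in each case. Leaving out 1 male of the strains in the fit, chosen after seeing the data for the part strains, gave 41 to 90 calls in Chr7C and 20 to 63 in Chr7T. With only the 4 Chr7 and B6 males, 0 genes were called by limma on chromosome 7 and 0 elsewhere (1314 genes in all had an unadjusted p below 0.05), and with the 5 strains Chr7, Chr7C, Chr7T, MSM and B6 there were 15 and 11.

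The first listed array alone gave 30 and 5 calls against B6, 53 elsewhere against the 25 strains, 17, 13, 3 and 2 against both (chromosome 7 higher and lower, elsewhere higher and lower), 39 in Chr7T and 92 between the Chr7 males. The second array alone gave 84 elsewhere against the 25 strains and 8 higher and 8 lower elsewhere against both. All arrays with the male as a random block gave 143 and 482 against B6, 572 elsewhere against the 25 strains, 69, 59, 171 and 105 against both, and 96 in Chr7T. Quantile normalization gave 234 elsewhere against B6, 60 and 239 against the 25 strains, 21 and 14 on chromosome 7 and 108 higher elsewhere against both, 33 in Chr7C and 119 in Chr7T. The share of higher calls against B6 was 88.9% there and 49.4% in the values as deposited.

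Testing all probe sets gave 139 elsewhere against B6, 53 lower on chromosome 7 and 31 lower elsewhere against both, and 97 in Chr7T. No filter on low values gave 57 elsewhere against B6. At an adjusted p below 0.01 there were 38 and 10 against B6, 27 elsewhere against the 25 strains, 17, 20, 2 and 3 against both, and 40 in Chr7T. The cause of these moves was not tested.

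Direction turned for Nap1l4 (0.00158 log2 units) and Fah (0.000138) under quantile normalization, and for Rps3 (-0.000124) with the mean of its probe sets. Of 49 genes named by rule, 31 kept call and direction under quantile normalization and 16 lost the call in the same direction or at a difference of 0. Of the 49, 44 were called without Chr7 male 1 and 22 without Chr7 male 2. No paired analysis was possible because the male numbers only name animals and pair none across strains. Depth does not apply to arrays; 2 males per strain limit the precision.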

Other observations

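Of the 30 strains, 20 had no gene called between their males by limma, 7 had 1 to 13, and Chr7 with 282, Chr7T with 61 and Chr9 with 1017 had more. Of the 133 genes higher in Chr7 male 2 than in male 1, male 2 was above all 50 males of the 25 strains in 115, and of the 149 lower, below all of them in 98. On chromosome 7, 30 genes differed between the males. They include Saa4, a constitutive serum amyloid, which lay at -6.87 in male 1 and -53.1 in male 2, against -19.3 to 23.5 in the 25 strains (adjusted p = 0.0246), and Nlrp6 at -22.5 and -33.6.

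Of other chromosome 7 genes called against both, picked after their values were seen, Uros, which makes uroporphyrinogen III for heme, was lower in Chr7, at -0.629 and -1.04 against 0.0153 and 0.165 in B6 (adjusted p = 0.00991). Bnip3, a mitophagy receptor, was lower at -2.58 and -2.94 against 0.572 and -0.0334 (adjusted p = 0.0411). Tufm, the mitochondrial elongation factor Tu, was higher at 0.499 and 0.38 against -0.102 and -0.138 (adjusted p = 0.0477).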
